A study of Mus musculus with 2 samples.

Results

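The 9 genes described here encode cathepsins and legumain, the main proteases of the lysosome: Ctsb, Ctsc, Ctsd, Ctsh, Ctsk, Ctsl, Ctss, Ctsz and Lgmn. They were chosen by name as a gene family, by a rule that uses none of their values but was written with earlier results of these data known, and they are 9 of the 32287 features counted in the library. All 9 were detected, with 1061182 unique molecular identifiers (UMIs, 1 for each captured RNA molecule) between them, which was 0.622% of the UMIs of the library.

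The library came from the tibialis anterior and gastrocnemius muscles of S100GFPtg mice, in which the S100B promoter drives GFP as a reporter of Schwann cells. The animals were male, 2 months old and wild type for Sod1, and their sciatic nerve had been crushed 7 days before the muscles were taken, so all cells described here share the injury and the transgene. Muscles were digested with enzymes, live GFP+ cells were sorted, and 1 droplet library with 3' tags was made from them. The study's methods speak of pooled males for sequencing and the series' design of a single crushed mouse, so the number of animals is uncertain. With 1 library there are no replicates, no test could be made, and every interval given is a 95% interval for counting error only. The matching GFP- library was not analysed here, and the GFP gate sets which cells could be seen at all. The GFP transcript was found at 645 CPM (UMIs of the gene divided by all UMIs of the class, times 1000000) in Schwann barcodes, at 457 in leukocytes, at 331 in tenocytes and at 112 in fibroblasts. Within leukocytes it was higher than in Schwann barcodes in the Gpnmb Fabp5 subset, at 932 CPM, and in the Ly6c2 Chil3 subset, at 730, so the reporter was not confined to Schwann cells.

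Of 36400 barcodes, 8701 had at least 5000 UMIs and passed the filters on genes and mitochondrial counts, with a median of 11624 UMIs. A class was the set of barcodes that carried at least 1 UMI of at least 50% of 6 to 8 marker genes of that cell type and passed no other gate, and 8018 barcodes fell into a single class. Leukocytes were 6054 of them and fibroblasts 1258, followed by 345 tenocytes, 199 satellite cells and myoblasts, 70 Schwann cells, 48 smooth muscle cells and pericytes and 40 endothelial cells. Subsets within leukocytes and fibroblasts were gated by stricter marker counts and are called by their leading markers. None of the 9 proteases was a gate marker. As a check on the classes, 8 leukocyte genes outside every gate, among them Tyrobp and Lyz2, were summed, and stood in fibroblasts at 1.22% of their level in leukocytes. The same check with 8 fibroblast genes such as Dcn and Col1a1 gave 0.275% in leukocytes, but 4.36% in Schwann, 3.96% in satellite and 6.74% in smooth muscle barcodes. Of the barcode sequences, 372 were also in the list of the GFP- library, and 84 of those were among the barcodes kept.

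Cathepsins are made as inactive proenzymes, carried to the lysosome by mannose 6-phosphate receptors and activated at low pH. Most are cysteine proteases held in check by cystatins, Ctsd is an aspartic protease, and Lgmn cuts after asparagine and processes several of the other cathepsins. In macrophages they degrade engulfed cells and myelin, in antigen presenting cells they trim the invariant chain and antigens for MHC class II, and in fibroblasts and osteoclasts they break down collagen and elastin.

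By the RefSeq annotation of GRCm38.p6, the build behind the mm10 name in the submitters' notes, Ctsb lies at chr14:63122462-63145923, Ctsc at chr7:88278024-88315861, Ctsd at chr7:142375910-142387827, Ctsh at chr9:90054267-90076095 and Ctsl at chr13:64361890-64370772. Ctsz lies at chr2:174427494-174439039 and Lgmn at chr12:102394082-102439728. Ctsk, at chr3:95499210-95509387, and Ctss, at chr3:95526786-95556405, are neighbours with 17398 bases between them. The matrix itself gives no coordinates. The bases just before the transcript start are printed for 3 members: for Ctsd because its level had the widest range among myeloid subsets and its promoter held the most E-box letters, and for Ctsk and Ctss because these neighbours differed in opposite directions between leukocytes and fibroblasts. Each runs 5' to 3' on the strand of its gene (minus for Ctsd, plus for the others), and capitals mark the E-box core CACGTG, which lies inside the sites of Tfeb and its relatives, the transcription factors of lysosomal genes.

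Ctsd promoter, chr7:142387828-142388077: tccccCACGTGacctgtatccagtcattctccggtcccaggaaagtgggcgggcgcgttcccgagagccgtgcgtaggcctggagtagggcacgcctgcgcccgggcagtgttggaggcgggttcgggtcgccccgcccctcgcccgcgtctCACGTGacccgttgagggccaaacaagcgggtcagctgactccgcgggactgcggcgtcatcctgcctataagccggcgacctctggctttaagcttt
Ctsk promoter, chr3:95498960-95499209: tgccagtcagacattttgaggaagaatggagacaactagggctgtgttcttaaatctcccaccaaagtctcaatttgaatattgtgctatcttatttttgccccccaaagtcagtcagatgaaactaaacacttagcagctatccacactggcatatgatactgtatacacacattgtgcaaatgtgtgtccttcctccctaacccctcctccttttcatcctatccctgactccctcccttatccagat
Ctss promoter, chr3:95526536-95526785: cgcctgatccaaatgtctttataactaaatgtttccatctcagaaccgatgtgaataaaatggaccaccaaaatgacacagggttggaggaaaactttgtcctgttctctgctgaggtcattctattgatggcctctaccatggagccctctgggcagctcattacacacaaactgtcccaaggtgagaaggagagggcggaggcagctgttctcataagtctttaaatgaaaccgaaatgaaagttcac

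Promoters of 300 bases, from 250 before to 50 after the start, were at hand for 7 of the 9 members, all but Ctsb and Ctsh. CACGTG is its own reverse complement, so a search of 1 strand covers both, and it was present in 7.15% of 32851 RefSeq promoters of that length. In Ctsd it began 245 and 98 bases before the start, and the nearer copy extended to TCACGTGA, which contains the core and is found in 0.974% of promoters. The longer CLEAR motif was searched for only as an exact string of letters, which is found in 0.326% of promoters and was in none of the members' windows. Sites that differ from that string by 1 or more letters were not searched for, so a near match, in Ctsd or another member, is not excluded. The windows of Ctsc, Ctsl and the second of 2 Lgmn promoters are built on starts that lie inside the annotated gene, by 61, 252 and 636 bases from its 5' end, and the other windows on the 5' end itself. The Ctsl window held the core 236 bases before that internal start, which is 16 bases inside the gene, and the second Lgmn window held it 49 bases before its own internal start, 587 bases inside the gene. No copy was present in the windows of Ctsc, Ctsk, Ctss, Ctsz or the first Lgmn promoter. These are matches of letters and were not tied to binding here.

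**Figure D1:**
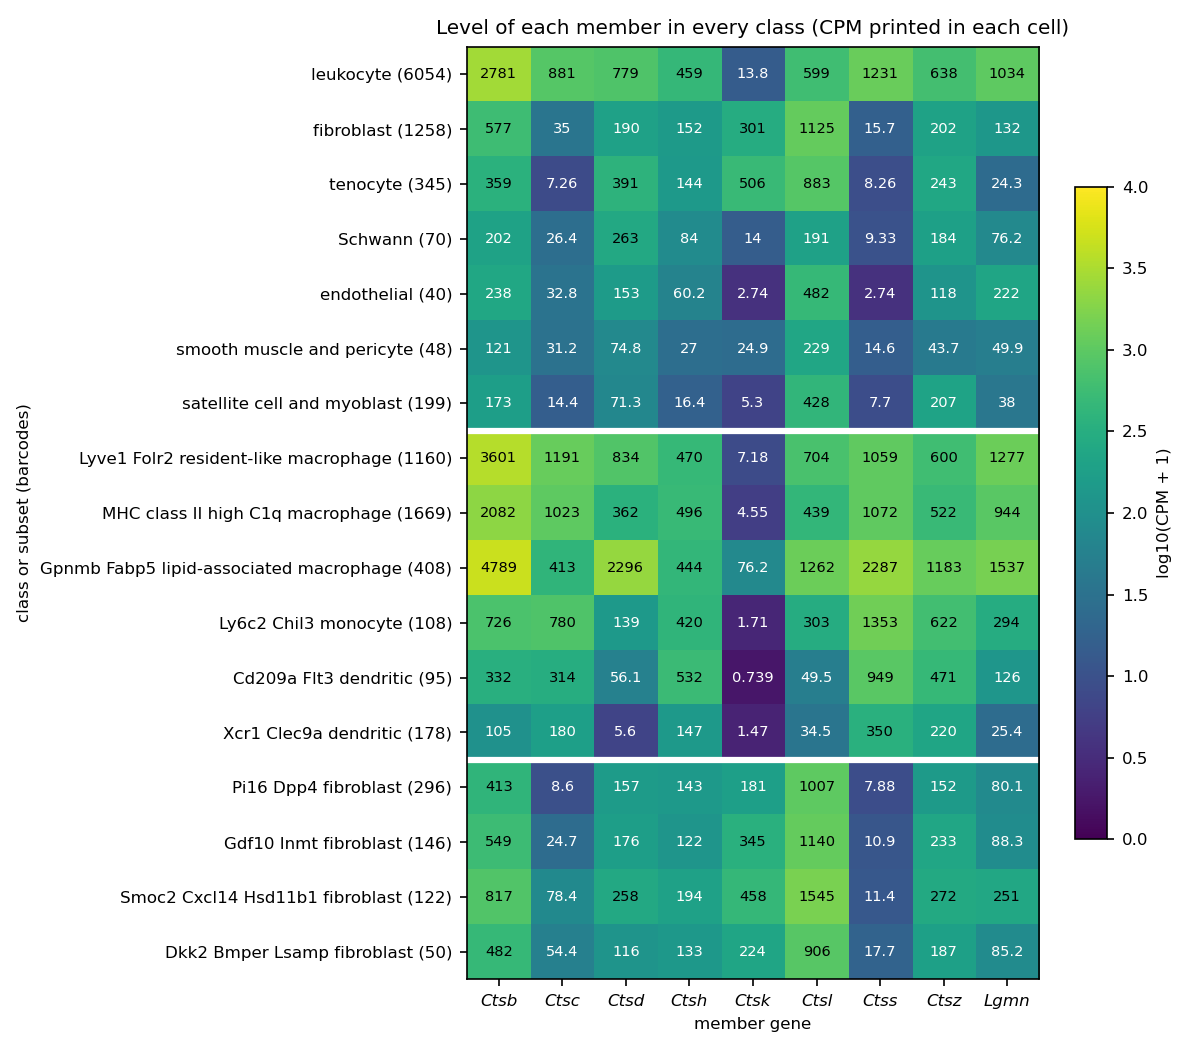
Level of each protease (columns) in every class and subset (rows, with the number of barcodes). Each cell prints the CPM and its colour gives log10(CPM + 1). Leukocyte subsets fill the middle block, where the Gpnmb Fabp5 row holds the highest value of 7 of the 9 genes, and fibroblast subsets the lower block. How many of all genes are highest in the Gpnmb Fabp5 row was not counted. Ctsk and Ctsl are the only columns where the fibroblast row exceeds the leukocyte row.

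Leukocytes carried more protease RNA than any other broad class. The 9 genes summed to 8415 CPM in leukocytes against 2730 in fibroblasts, a log2 difference of 1.62 (1.61 to 1.64). Tenocytes were close to fibroblasts at 2565 CPM, while endothelial cells were at 1311, Schwann cells at 1050, satellite cells at 962 and smooth muscle cells at 615. Of the 9, 7 were at least 2-fold higher in leukocytes, 1 was at least 2-fold higher in fibroblasts, and Ctsl was higher in fibroblasts by less than 2-fold. For all 8620 genes with a mean of at least 10 CPM over both classes, the same thresholds were passed by 17.8% toward leukocytes and by 20.9% toward fibroblasts. The median log2 difference was 2.03 for the 9 proteases and -0.03 for all genes tested. A gene near that floor of 10 CPM can enter only through the class where it is high, here and in each comparison below, but none of the members was near it in this one.

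Ctss, a cysteine protease that stays active at neutral pH and cuts the invariant chain of MHC class II, separated the classes most widely. It stood at 1231 CPM (1223 to 1239) in leukocytes and at 15.7 CPM (14.0 to 17.5) in fibroblasts, a 78.5-fold difference (log2 6.29, 6.13 to 6.46). The other non-leukocyte classes lay between 2.74 CPM in endothelial cells, which was 1 UMI, and 14.6 in smooth muscle cells, and neighbours in that order did not differ beyond counting error. With every barcode thinned to 5000 UMIs, 96.8% of leukocytes (96.3 to 97.2) and 8.59% of fibroblasts (7.095 to 10.3) had a Ctss UMI, and without thinning 99.3% and 14.1%. Satellite cells, taken here as a class that should lack the gene, stood at 5.03% after thinning and 8.04% before. The low fibroblast level moved with the leukocyte check genes. Fibroblast barcodes of 5000 to 10000 UMIs held 85.7 CPM of Ctss and 975 CPM of the leukocyte check genes, and those of at least 20000 UMIs held 6.63 and 53.9 CPM. The log2 difference was 4.54 when barcodes that passed several gates were kept and 10.91 when the leukocyte RNA estimated from the check genes was subtracted, so its size is less certain than its counting interval.

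Ctsc, or dipeptidyl peptidase 1, which activates serine proteases of granules, followed at 881 CPM in leukocytes and 35.02 in fibroblasts, a 25.2-fold difference (log2 4.65, 4.54 to 4.76). Its fibroblast level also depended on depth, at 82.5 CPM in the shallowest and 26.9 CPM in the deepest barcodes, and its log2 difference ran from 3.85 to 5.18 over the processing alternatives. Lgmn was 7.85-fold higher in leukocytes, at 1034 against 132 CPM. Ctsb, an endopeptidase and carboxydipeptidase, had the highest level of the 9 genes in leukocytes at 2781 CPM and 4.82-fold higher than in fibroblasts, at 577 CPM. Tags are counted once for each molecule at its 3' end, so these levels are not scaled by gene length. The aspartic protease Ctsd had 779 CPM in leukocytes and 190 in fibroblasts (log2 difference 2.03), the carboxypeptidase Ctsz had 638 and 202 (1.66), and the aminopeptidase Ctsh had 459 and 152 (1.59). These 3 therefore differed less between the classes than Ctss, Ctsc and Lgmn did.

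Ctsk, the collagenase of osteoclasts that cuts triple helical collagen, ran the other way. It was at 300.5 CPM (293 to 308) in fibroblasts, at 506 (484 to 529) in tenocytes and at 13.8 (13.03 to 14.7) in leukocytes, 21.7-fold lower than in fibroblasts (log2 difference 4.44). After thinning, a Ctsk UMI was found in 62.8% of fibroblasts (60.1 to 65.5), 82.9% of tenocytes and 3.98% of leukocytes, against 1.01% in satellite cells, again taken as a class that should lack it. The unthinned shares were 87.7%, 93.6%, 8.49% and 5.53%. Unlike Ctss, its fibroblast level hardly moved with depth, at 294.5, 291.9 and 312.4 CPM in barcodes of 5000 to 10000, 10000 to 20000 and at least 20000 UMIs. The lower and upper quartiles of the fibroblast barcodes were 92.0 and 379 CPM, around a median of 189.9, whereas the leukocyte median was 0 and the top twentieth of leukocyte barcodes held 80.1% of the class's Ctsk UMIs.

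**Figure D2:**
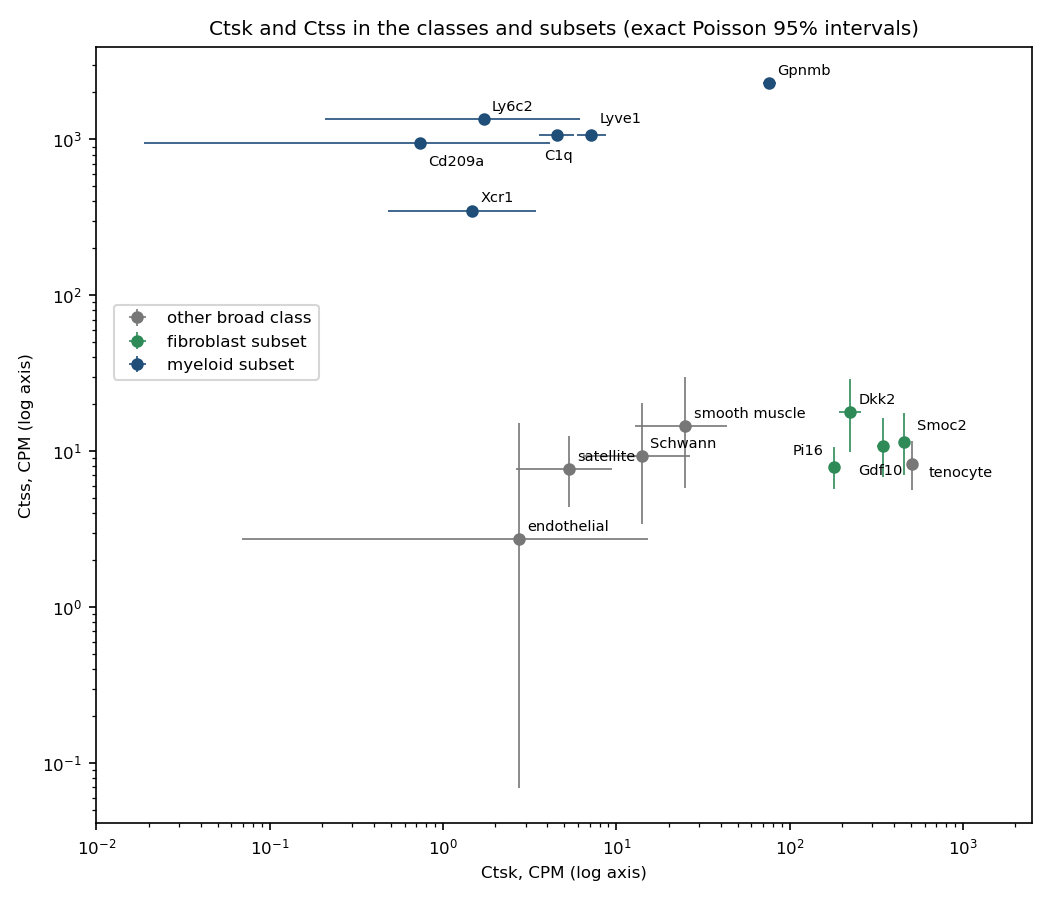
Ctsk (horizontal, CPM, log axis) against Ctss (vertical, CPM, log axis) in 15 classes and subsets, with exact Poisson 95% intervals. Myeloid subsets sit at 350 CPM of Ctss or more, fibroblast subsets and tenocytes at 181 CPM of Ctsk or more, and the Gpnmb Fabp5 subset stands apart from the other myeloid subsets with 76.2 CPM of Ctsk.

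Ctsl, an endopeptidase of broad use, was the most evenly spread of the family. Fibroblasts had 1125 CPM (1110 to 1140) and leukocytes 599 (593 to 604), a log2 difference of -0.91, which became -1.03 as a mean over barcodes and so passed 2-fold there. Tenocytes had 883 CPM, endothelial cells 482, satellite cells 428, smooth muscle cells 229 and Schwann cells 191. The fold between highest and lowest was 5.88, the smallest of the 9 genes over the broad classes, while for Ctsc it was 121. Ctsl made up 41.2% of the family's UMIs in fibroblasts and 44.5% in satellite cells, whereas in leukocytes Ctsb led with 33.0%. The classes thus differed in the makeup of the family as well as in its sum.

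**Figure D3:**
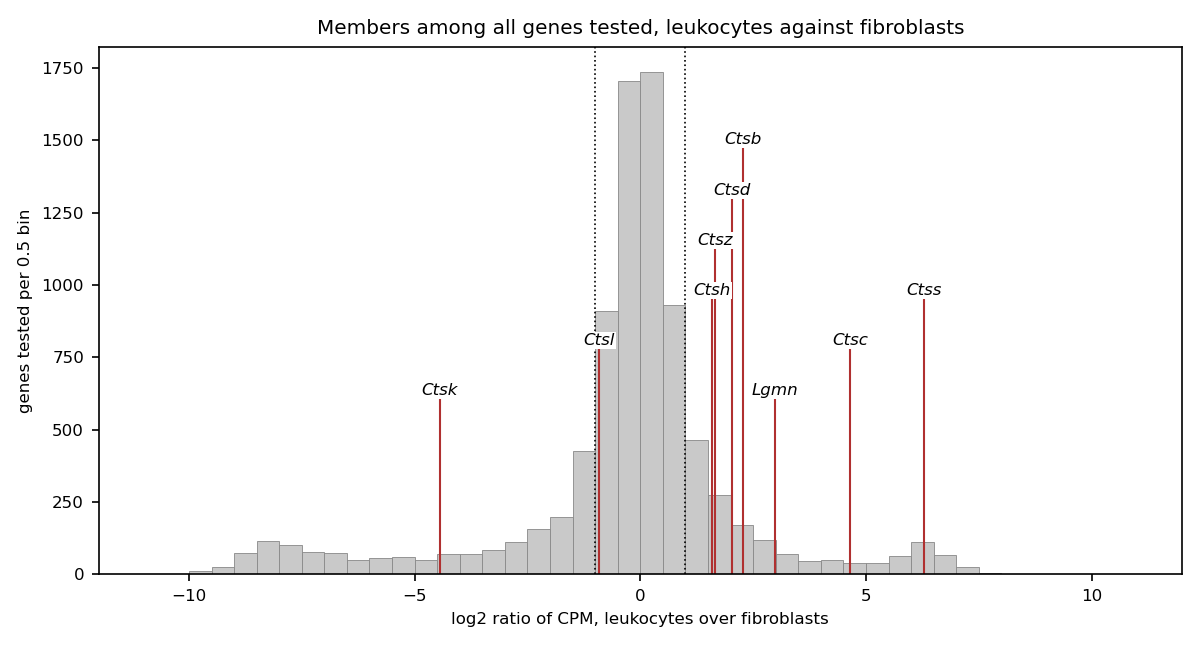
Histogram of the log2 ratio of CPM, leukocytes over fibroblasts, for all 8620 genes tested (bins of 0.5, dotted lines at 2-fold), with the 9 proteases as red lines whose heights only separate the names. Ctss and Ctsc lie in the right tail, Ctsk lies in the left, and Ctsl is just inside the left dotted line.

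Among leukocyte subsets, the sum of the proteases, of which Ctsb was the largest share in macrophages, was highest in the Gpnmb Fabp5 subset, lower in the Lyve1 Folr2 and MHC class II high C1q subsets, and lowest in monocytes and dendritic cells, an order that single members such as Ctsc, Ctsh and Ctss did not share. The sum of the 9 genes was 14287 CPM in the 408 Gpnmb Fabp5 barcodes, 9742 in the 1160 Lyve1 Folr2 barcodes, 6945 in the 1669 C1q barcodes and 4639 in the 108 Ly6c2 Chil3 barcodes. It was 2830 CPM in the 95 Cd209a Flt3 dendritic barcodes and 1069 in the 178 Xcr1 Clec9a dendritic barcodes. The 12 Ccr7 Fscn1 barcodes are too few for an order. The Gpnmb gate asked for Gpnmb, Fabp5, Spp1, Trem2, Lpl and Lgals3, genes of foamy, debris-laden macrophages, and the Lyve1 gate for genes of resident macrophages. A further 1237 leukocytes passed no subset gate and 1181 passed several.

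**Figure D4:**
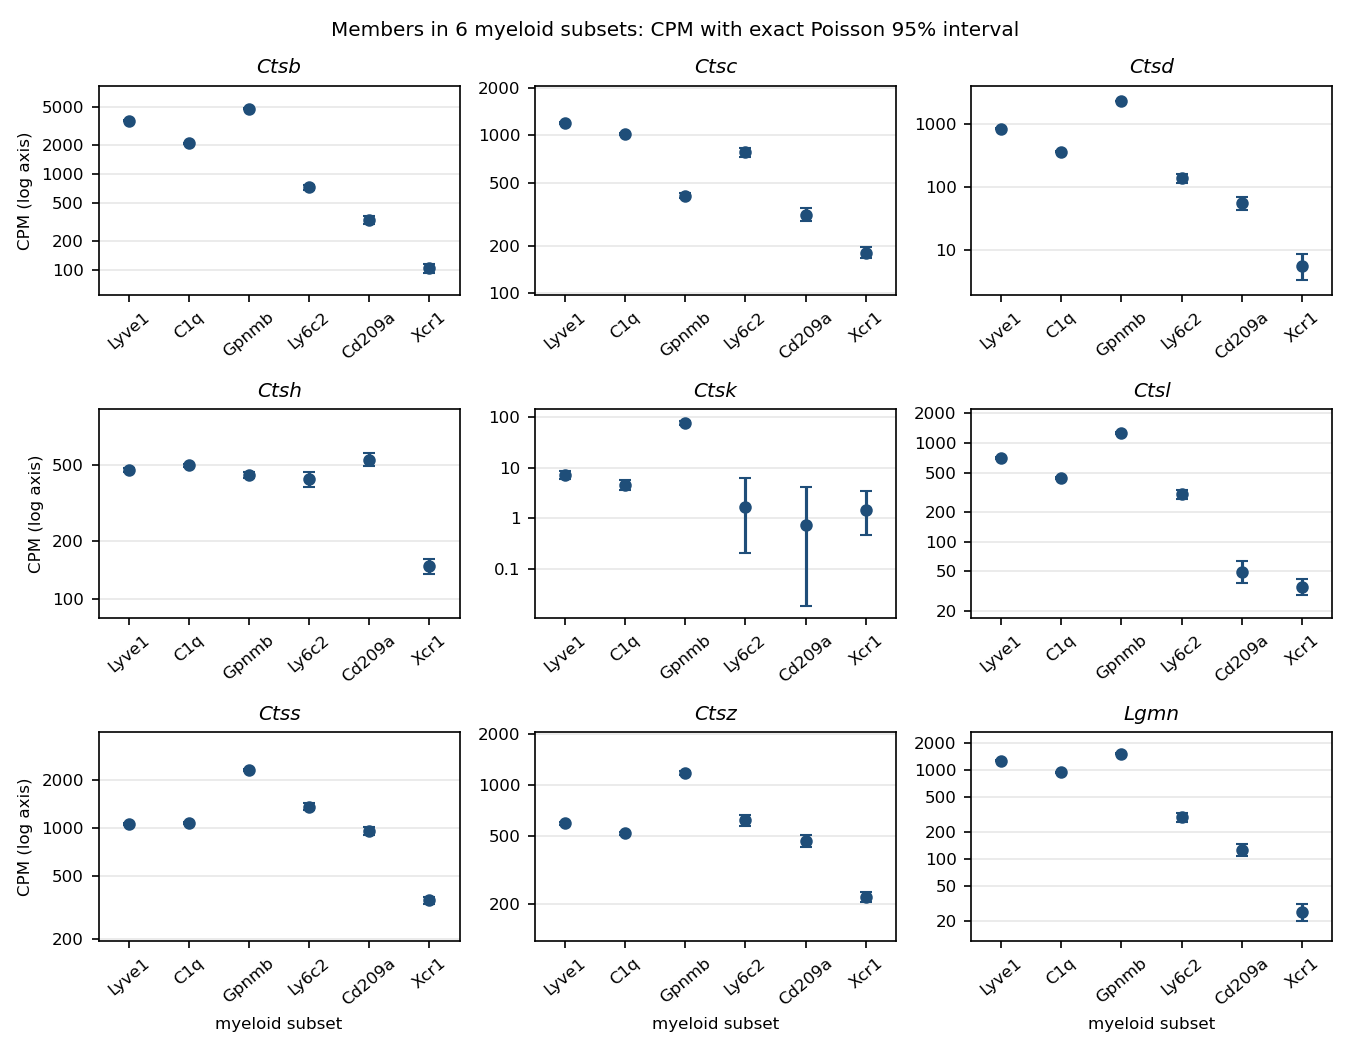
CPM of each protease (log axes, 1 panel a gene) in 6 myeloid subsets, with exact Poisson 95% intervals. In 7 panels the Gpnmb subset is highest, in the Ctsc panel the Lyve1 subset is highest, and in the Ctsh panel the subsets other than Xcr1 lie between 420 and 532 CPM. The share of all genes highest in the Gpnmb subset was not counted.

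Set against the Lyve1 Folr2 subset, the Gpnmb Fabp5 subset had Ctsd, Ctsk and Ctss at least 2-fold higher and Ctsc at least 2-fold lower, 3 and 1 of the 9. Of 7550 genes tested, 8.17% were that much higher and 16.4% that much lower. Ctsk, at 7.18 CPM in the Lyve1 subset, entered this comparison only through its level in the Gpnmb subset. Ctsd was at 2296 CPM (2261 to 2333) against 834 (819 to 848), a log2 difference of 1.46, and Ctss was at 2287 against 1059 (1.11, 1.08 to 1.14). Ctsz, at 1183 against 600 CPM, and Ctsl, at 1262 against 704, fell just short, with log2 differences of 0.98 and 0.84. Ctsb and Lgmn were higher by 0.41 and 0.27, and Ctsh differed by -0.08. Ctsc was the only member at least 2-fold lower, at 413 CPM (398 to 429) in the Gpnmb subset and 1191 (1173 to 1208) in the Lyve1 subset, a log2 difference of -1.53. The median over the 9 was 0.84, and over all genes tested -0.10.

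The Gpnmb barcodes were deeper, with a median of 15859 UMIs against 12541 in the Lyve1 subset, and in leukocytes as a whole Ctsd went from 502 CPM below 10000 UMIs to 1285 CPM at 20000 or more. Within barcodes of 10000 to 20000 UMIs only, 247 Gpnmb and 825 Lyve1 barcodes remained. There Ctsd differed by 1.19 (1.15 to 1.24) on the log2 scale, Ctsk by 3.59 and Ctsc by -1.38, but Ctss by 0.98 and Ctsl by 0.32. At this depth the Ctss difference thus lay just under 2-fold and that of Ctsl was smaller than over all depths. Spread between barcodes was wide, since the quartiles of Ctsd were 1029 and 2946 CPM around a median of 1915 in Gpnmb barcodes, and 390 and 1101 around 718 in Lyve1 barcodes.

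Ctsk was present in the Gpnmb subset and nearly absent from the other myeloid subsets. It stood there at 76.2 CPM (69.8 to 83.0), against 7.18 in the Lyve1 subset, 4.55 in the C1q subset and 5 UMIs or fewer in each of the monocyte and dendritic subsets. The difference to the Lyve1 subset was 3.41 on the log2 scale (3.11 to 3.72). These UMIs were concentrated: of 524 in the subset, 77 came from 1 barcode and 294, or 56.1%, from the top 20 barcodes. A Ctsk UMI was found in 17.9% of the subset's barcodes after thinning (14.3 to 22.0) and in 38.5% before.

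The subset was then read by its Ctsk count, as a description only, since the split uses a member. The 251 barcodes without a Ctsk UMI had 1850 CPM of Ctsd, the 136 with 1 to 4 UMIs had 2742, and the 21 with 5 or more had 3626. Ctsl had 897, 1563 and 2713 CPM in the same order, and Ctss had 1900, 2662 and 3503. Ctsc ran the other way, with 523, 293 and 149 CPM. Ctsb had 4112, 5618 and 5867, and Ctsz had 1063, 1333 and 1357. Lgmn, with 1433, 1708 and 1439 CPM, and Ctsh, with 438, 466 and 370, did not follow the Ctsk count. Atp6v0d2, a proton pump subunit of osteoclasts and macrophages, had 64.5, 199 and 265 CPM, and Acp5, the acid phosphatase of osteoclasts, had 43.8, 52.1 and 72.1. The fibroblast check genes stood at 89.9, 50.2 and 69.7 CPM and so did not increase with the Ctsk count. Median depth did, from 14436 UMIs through 18026.5 to 19931, and its part in the differences was not tested.

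Between the 2 largest macrophage subsets, few genes passed 2-fold. The C1q subset, which carried MHC class II genes, had 1 of 8 members tested at least 2-fold lower than the Lyve1 subset and none higher, where 3.21% and 3.31% of 7745 genes passed those thresholds. That gene was Ctsd, at 362 against 834 CPM (log2 difference -1.20, -1.25 to -1.16). Ctsb was lower by 0.79, Ctsl by 0.68 and Lgmn by 0.43, while Ctss did not differ beyond counting error (0.02, -0.01 to 0.05). Ctsh was slightly higher, by 0.08. This comparison and those of the Gpnmb, monocyte, Xcr1 and Cd209a subsets share the Lyve1 Folr2 barcodes.

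The Ly6c2 Chil3 subset, with genes of inflammatory monocytes, had lower Ctsb, Ctsd, Ctsl and Lgmn, and levels of Ctss, Ctsz and Ctsh near those of the Lyve1 subset. The 4 stood at 726, 139, 303 and 294 CPM and were at least 2-fold lower than in the Lyve1 subset, out of 8 tested, and none was 2-fold higher. In all, 20.0% of 7491 genes were that much lower and 11.1% that much higher. Ctss, at 1353 CPM (1288 to 1422), was higher by 0.35 on the log2 scale, and Ctsz, at 621.5, did not differ beyond counting error (0.05, -0.06 to 0.16). Ctsc was lower by 0.61, at 780 CPM, and Ctsh by 0.16, at 420.

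The Xcr1 Clec9a subset had the lowest sum of the myeloid subsets, and Ctss led the family there. Xcr1 Clec9a barcodes, marked by genes of cross-presenting dendritic cells, had Ctss at 350 CPM (330 to 370), which was 32.7% of their protease UMIs, and Ctsz at 220. Ctsd, in contrast, was at 5.60 CPM (3.37 to 8.75), or 19 UMIs in 178 barcodes, and Ctsb was at 105. All 8 members tested were at least 2-fold lower than in the Lyve1 subset and none was higher, where 24.6% and 12.8% of 7610 genes were so. The log2 differences ran from -1.45 for Ctsz to -7.22 for Ctsd (-7.95 to -6.57). From the Gpnmb to the Xcr1 subset Ctsd spanned 409.7-fold, Lgmn 60.6-fold, Ctsb 45.6-fold and Ctsl 36.6-fold, whereas Ctsh spanned 3.61-fold between its highest and lowest subset.

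The 2 dendritic subsets differed from each other, and the Cd209a Flt3 subset kept several members near their macrophage levels. Cd209a Flt3 barcodes had Ctss at 949 CPM (898 to 1003), Ctsh at 532 (494 to 572) and Ctsz at 470.5, and Ctsh was there as high as in the C1q subset, at 496 CPM, within counting error. Against the Lyve1 subset 5 of 8 members tested were at least 2-fold lower and none higher, where 22.1% and 10.6% of 7564 genes were so. The 5 were Ctsb, Ctsc, Ctsd, Ctsl and Lgmn, from -1.92 for Ctsc to -3.89 for Ctsd on the log2 scale, while Ctsh differed by 0.18 (0.07 to 0.29), Ctss by -0.16 and Ctsz by -0.35. Against the Cd209a subset the Xcr1 subset had 6 of 8 members tested at least 2-fold lower and none higher, with 10.6% and 8.44% of 6921 genes past those thresholds. Ctsd differed by -3.32, Lgmn by -2.32, Ctsh by -1.85, Ctsb by -1.66, Ctss by -1.44 and Ctsz by -1.10 on the log2 scale. Ctsc and Ctsl differed by less, at -0.80 and -0.52. Ctsk had 1 UMI in the Cd209a subset and 5 in the Xcr1 subset, which gives no order.

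Cycling leukocytes were 96 barcodes gated by Mki67, Top2a, Birc5, Cenpf, Ube2c and Cdk1. They had less of the family, at 3169 CPM against 8579 in the remaining 5958. Of 8 members tested, 6 were at least 2-fold lower and none higher, where 6.50% and 10.8% of 7981 genes were so, and Ctsc and Ctsz lay under 2-fold. The makeup of the class moved with this: 26 of the 96 were Xcr1 barcodes, the subset with the lowest levels, 16 were Lyve1 and 16 C1q barcodes, and only 1 was a Gpnmb barcode. The largest part, 35, passed no subset gate or several. Median depth was 23245 UMIs in cycling and 11387.5 in the other leukocytes, and its part in the differences was not tested. Within the Xcr1 subset the sum was 1013 CPM in cycling and 1085 in other barcodes, a log2 difference of -0.10 whose interval includes 0 (-0.22 to 0.02). Single members differed there in both directions, Ctsh by 0.41 (0.11 to 0.69), Ctss by -0.40 (-0.62 to -0.18) and Ctsl by -0.95 (-1.84 to -0.16). Within the Lyve1 subset it was 5712 against 9842 CPM (-0.78, -0.85 to -0.72), and within the C1q subset 4636 against 6988 (-0.59). Ctss differed by -1.62 and -1.37 in those 2 subsets and Ctsh by -1.80 and -0.87, while Lgmn differed by only -0.27 and -0.26.

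Among fibroblast subsets, the Smoc2 Cxcl14 Hsd11b1 subset was highest for 8 of the 9 genes, all but Ctss. The share of all genes highest in the Smoc2 subset was not counted, so the 8 have no background beside them. The 122 Smoc2 barcodes summed to 3884 CPM, against 2150 in the 296 Pi16 Dpp4 barcodes, 2689 in the 146 Gdf10 Inmt barcodes and 2204 in the 50 Dkk2 Bmper Lsamp barcodes. Ctsk was at 458 CPM (427 to 490) in the Smoc2 subset, 345 in Gdf10, 224 in Dkk2 and 181 (170 to 193) in Pi16, and Ctsl at 1545, 1140, 906 and 1007 CPM in the same subsets. Between Pi16 and Smoc2 barcodes, 3 of 8 members tested were at least 2-fold lower in Pi16 and none higher, against 7.20% and 7.54% of 8316 genes. These were Ctsc (log2 difference -3.19), Lgmn (-1.65) and Ctsk (-1.34). Ctsc spanned 9.12-fold, from Smoc2 at 78.4 CPM to Pi16 at 8.60. Ctss stood between 7.88 and 17.7 CPM in the 4 subsets and was also lowest in Pi16. Neighbours in the order of Ctss did not differ beyond counting error.

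Tenocytes, the tendon fibroblasts, had a sum close to that of fibroblasts, with a log2 difference of -0.09 (-0.12 to -0.06), and another makeup. Ctsd was 2-fold higher than in fibroblasts, at 391 CPM (372 to 411) against 190, and Ctsc and Lgmn were at least 2-fold lower, 1 and 2 of 9, where 8.06% and 11.5% of 8547 genes passed those thresholds. Lgmn was at 24.3 CPM (19.7 to 29.6) in tenocytes and 132 in fibroblasts, a log2 difference of -2.44, and Ctsc at 7.26 and 35.02 (-2.27). Ctsk was higher in tenocytes by 0.75 on the log2 scale (0.68 to 0.83), so it made up 19.7% of their protease UMIs against 11.0% in fibroblasts. Ctsh did not differ beyond counting error. This comparison and the next 3 share the fibroblast barcodes.

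Schwann cells, the target of the reporter, were few and low in these proteases. In 70 barcodes Ctsd led with 263 CPM (225 to 306), followed by Ctsb with 202, Ctsl with 191, Ctsz with 184, Ctsh with 84.0 and Lgmn with 76.2. Ctsd was 25.0% of the protease UMIs, and its log2 difference to fibroblasts of 0.47 (0.23 to 0.69) was near the median of 0.39 over all genes tested. Ctsb, Ctsk and Ctsl were at least 2-fold lower than in fibroblasts, 3 of 9, and none was higher, where 16.3% and 25.0% of 9069 genes were so. Ctsk stood at 14.0 CPM (6.40 to 26.6) and Ctss at 9.33 (3.42 to 20.3), from 9 and 6 UMIs, and the fibroblast check genes stood in these barcodes at the 4.36% given above. Whether RNA of other cells adds to these counts was not tested.

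Endothelial cells had Ctsl at 482 CPM (413 to 558) and Lgmn at 222 (176 to 276), the highest Lgmn of the broad classes outside leukocytes and above fibroblasts by 0.75 on the log2 scale (0.41 to 1.07), where the median over all genes tested was 0.23. Ctsb, Ctsh, Ctsk and Ctsl were at least 2-fold lower than in fibroblasts, 4 of 8 tested, and none was higher, with 16.7% and 20.9% of 8888 genes past those thresholds. Their 40 barcodes held 1 UMI each of Ctsk and Ctss. Satellite cells and myoblasts, the muscle precursors, had Ctsl at 428 CPM (401 to 458) and Ctsz at 207 (188 to 228), and Ctsl alone gave 44.5% of their protease UMIs. Of the members, 7 were at least 2-fold lower than in fibroblasts without counting Ctss, and none was higher, where 20.5% and 10.1% of 8358 genes passed those thresholds. Ctss, at 7.70 against 15.7 CPM, also passed 2-fold, but it entered the comparison only through the fibroblast level, and in fibroblast barcodes of at least 20000 UMIs that level was 6.63 CPM. The 7 include Ctsk, which was at 5.30 CPM in satellite cells and also entered through its fibroblast level. They include Ctsc as well, at 14.4 CPM in satellite cells. Its level in fibroblast barcodes of at least 20000 UMIs, 26.9 CPM, was less than 2-fold above that. Ctsz did not differ beyond counting error (0.04, -0.11 to 0.18). Smooth muscle cells and pericytes had the lowest sum, with Ctsl at 229 CPM, Ctsb at 121 and Ctsd at 74.8.

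Of the 10 genes on the list of inhibitors, 3 were high enough to compare. Cst3, secreted cystatin C, was at 5360 CPM in leukocytes and 3241 in fibroblasts (log2 difference 0.73), and Cstb, the cytosolic cystatin B, at 796 and 212 (1.91). Serpinb6a, a cytosolic serpin, was at 205 and 662 CPM (-1.69). Among the 6 myeloid subsets Cst3 was highest in the Xcr1 subset, which had the lowest protease sum, at 25380 CPM, and lowest in the Gpnmb subset, which had the highest, at 1879. Cstb was lowest in the Xcr1 subset and highest in the Gpnmb subset, at 86.4 and 2466 CPM. Cst7, cystatin F, had 94 UMIs in leukocytes and none in fibroblasts, and Cst6, Serpina3g and the stefins Stfa1, Stfa2, Stfa3 and Stfa2l1 were too low to compare.

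Of the 6 other cathepsins, 3 were high enough to compare. Ctsa, the protective protein of lysosomal glycosidases, was at 294 CPM in leukocytes and 58.3 in fibroblasts (log2 difference 2.34), while Ctsf and Ctso lay toward fibroblasts by 0.98 and 0.75. Ctsf was at 53.5 CPM in the Lyve1 subset and 2.03 in the Gpnmb subset (-4.72), so it moved there with Ctsc and against Ctsd. Ctso was at 31.8 and 14.97 CPM in these subsets, and Ctsa did not differ by more than 0.06. Ctse, Ctsg and Ctsw had 396, 6 and 62 UMIs in leukocytes and 2, 0 and 2 in fibroblasts.

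**Figure D5:**
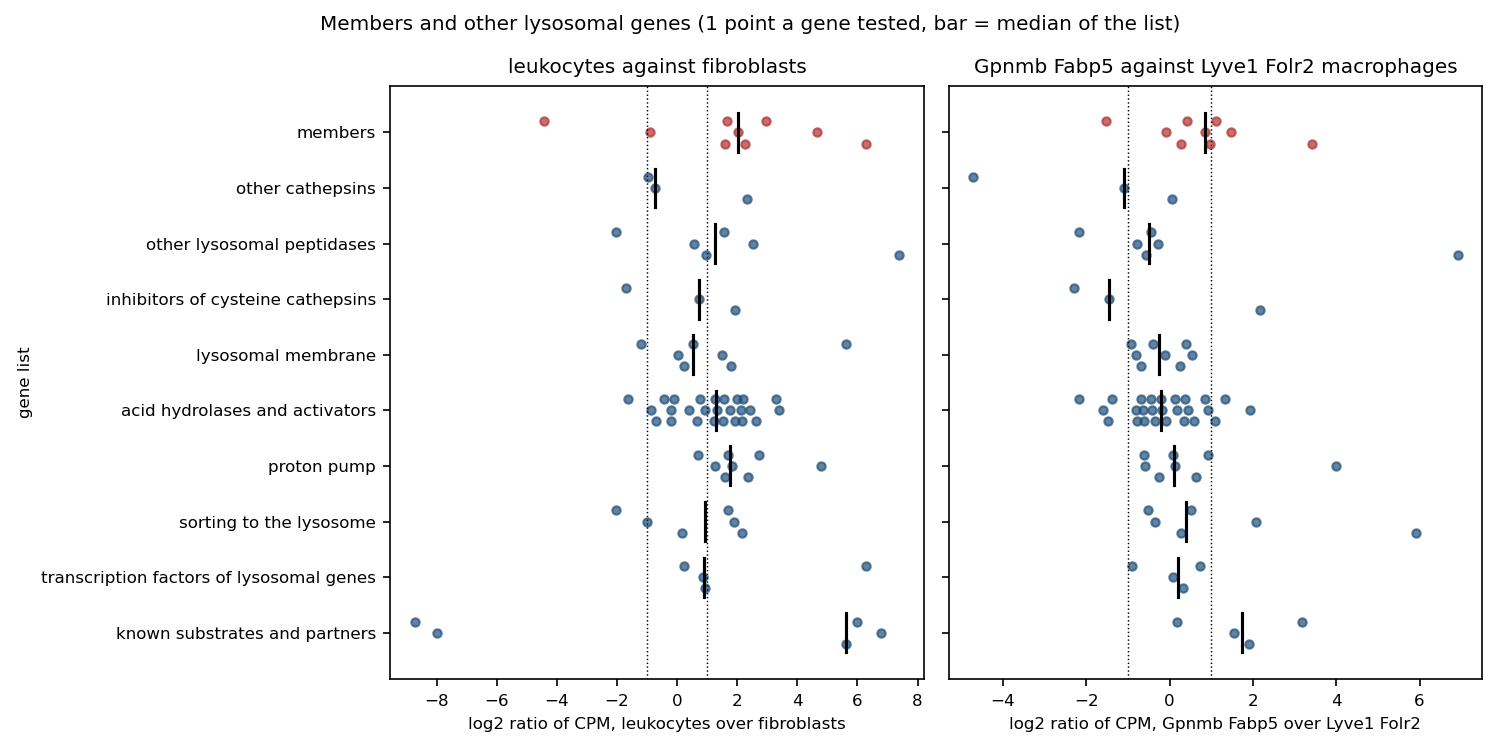
Log2 ratio of CPM for each gene tested of the 9 proteases (red) and of 9 further lists (blue), leukocytes over fibroblasts (left) and the Gpnmb Fabp5 over the Lyve1 Folr2 subset (right). The further lists hold lysosomal genes, and also inhibitors and substrates that are not all genes of the lysosome. Black bars are medians of lists and dotted lines mark 2-fold. On the left the proton pump and the acid hydrolases lie mostly toward leukocytes, and on the right their medians are 0.11 and -0.20.

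The other lysosomal lists differed in how many of their genes were higher in leukocytes. Of 26 acid hydrolases and activators, 15 were at least 2-fold higher in leukocytes and 1 in fibroblasts, with a median log2 difference of 1.29. The counts in this paragraph and the next stand beside the 17.8% and 20.9% of all 8620 genes past 2-fold in each direction, and as a few genes a list they are descriptions. The largest were Ifi30 (3.40), a thiol reductase of antigen processing, and Galc (3.28), which degrades a myelin lipid, and Gaa (-1.65) and Smpd1 (-0.87) lay furthest toward fibroblasts. Of 8 proton pump genes, 7 were higher and none lower, with a median of 1.77, led by Atp6v0d2 (4.80) and Atp6v0c (2.72), and Atp6ap1 (0.68) was the one under 2-fold. In the membrane list 3 of 7 genes tested were higher and 1 lower, from Cd68 (5.63) and Npc1 (1.80) to Laptm4a (-1.20). Among 6 other peptidases 3 were higher and 1 lower, with Napsa (7.39) and Prcp (2.54) at one end and Cpq (-2.03) at the other.

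Sorting genes were split. M6pr (2.17), the cation dependent mannose 6-phosphate receptor, and Grn (1.90), the progranulin that carries lysosomal proteins, were higher in leukocytes, whereas Igf2r (-2.05), the other receptor, and Gnptg (-0.99) lay toward fibroblasts. In all 3 of 6 tested were at least 2-fold higher and 1 lower. Of the transcription factors, Tfec was at 55.5 against 0.71 CPM (6.29), and Tfeb (0.85), Tfe3 (0.93) and Mitf (0.22) differed by less than 2-fold. Of the substrates and partners, Cd74 (6.78), the invariant chain, and H2-DMb1 (5.97) stood with leukocytes, and Eln (-8.73) and Col1a1 (-7.98) with fibroblasts.

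Between the Gpnmb and the Lyve1 subsets the further lists are described only, since most held genes that differed in both directions. The acid hydrolases had a median log2 difference of -0.20, with 3 of 26 at least 2-fold higher and 4 lower, near the 8.17% and 16.4% of all genes. Psap (1.94), the precursor of the saposins, and Gm2a (1.33) were at the top and Arsb (-2.18) and Manba (-1.59) at the bottom. No gene of the membrane list passed 2-fold in either direction. Of the proton pump, Atp6v0d2 was at 128 against 8.04 CPM (3.99) and the other 7 lay under 2-fold. Of 6 sorting genes tested, 2 were at least 2-fold higher and 0 lower. Igf2r was at 106 against 1.78 CPM (5.90) and Gnptab differed by 2.07. Napsa, an aspartic protease related to Ctsd, was at 71.5 against 0.59 CPM (6.91), and Cpq, a plasma glutamate carboxypeptidase, at the other end by -2.18. Among the transcription factors Tfeb differed by 0.73, Tfe3 by -0.91, Mitf by 0.33 and Tfec by 0.08, none of them past 2-fold. Cd74 (3.17), H2-DMb1 (1.91) and H2-DMa (1.54) were the 3 partners past it. The C1q gate asked for MHC class II genes among others, and barcodes that also passed it were left out of both subsets. Cd74 was at 260 CPM in the Lyve1 subset and at 7022 in all leukocytes. How far the gates set these 3 differences was not tested.

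The pattern of each member over 15 classes and subsets was compared with that of 6559 genes by Pearson's r on log2(CPM + 1), as a description, since the points share 1 library and its gates. Ctss was most like Cd300c2 (r = 0.99), Cfp (0.98) and Cd48 (0.98), genes of myeloid cells. Ctsb was most like Grn (0.93), Atp6v1a (0.93) and Renbp (0.91), Ctsd like Lamp1 (0.92), Pld3 (0.91) and Lrp12 (0.88), and Ctsc like Arrb2 (0.95), Mapkapk2 (0.94) and P2ry6 (0.94). Several of these are themselves genes of the lysosome. Ctsk was most like Copb2 (0.93), Sar1a (0.93) and Gaa (0.91), Ctsl like Mcfd2 (0.92), Timp2 (0.91) and Rnase4 (0.91), and Ctsh like P2rx4 (0.91), Hexa (0.90) and Cyba (0.89). For Ctsz the nearest were Ftl1-ps1 (0.92), a pseudogene whose reads may be shared with its parent gene, Soat1 (0.91) and Cln3 (0.89), and for Lgmn they were 4930430E12Rik (0.91), Tmem164 (0.90) and Ctsb (0.90). Within the family, Ctsc and Ctss had r = 0.92 and Ctsb and Lgmn 0.90, whereas Ctsk had -0.52 with Ctsc and -0.48 with Ctss.

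Across single barcodes thinned to 5000 UMIs, some pairs differed in sign from the classes, and r is also bounded by sparse counts. Between Ctsk and Ctss it was 0.12 in leukocytes and 0.22 in the Gpnmb subset, against the -0.48 across classes. In leukocytes it was 0.64 between Ctsb and Lgmn and 0.60 between Ctsb and Ctsd. In the Gpnmb subset it was 0.69 between Ctsb and Ctsd and 0.55 between Ctsb and Lgmn, but -0.35 between Ctsb and Ctsc and -0.37 between Ctsc and Ctsd. In fibroblasts no pair exceeded the 0.32 of Ctsb and Lgmn. These values describe barcodes of 1 library and are not replicates.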

How the data were processed

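Raw UMI counts per gene and barcode of the GFP+ cells were used as deposited, without normalization by the authors, who had made them with Cell Ranger. The matrix header names Cell Ranger 8.0.1, the submitters' processing notes name Cell Ranger 7.1.0 with mm10 and Seurat 4.30, and the paper's methods name another version and both mouse builds. The authors' removal of ambient RNA and doublets is not in these counts.

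Barcodes with at least 5000 UMIs, over 200 genes and under 10% mitochondrial counts were kept (193 of 8894 removed). A broad class needed 1 UMI of at least 50% of its markers and no other broad gate, and a subset needed 2 UMIs of at least 2/3 of its markers and no other subset gate. The cut-offs were set after marker counts, not member counts, had been seen. Doublets were limited by dropping the 561 barcodes that passed several gates, and the alternatives include a Scrublet run.

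UMIs were summed over a class and divided by its total (CPM), with exact Poisson intervals, exact conditional intervals for ratios, and exact (Clopper-Pearson) binomial intervals for shares after thinning each barcode to 5000 UMIs. A difference was counted at 2-fold, among genes with a mean of at least 10 CPM over both classes. Intervals and counts past 2-fold were tested on simulated data. Named genes are the 9 members, all inhibitors, other cathepsins and transcription factors, and in each other list the 2 with the largest difference in each direction. Atp6v0d2 and Acp5 beside Ctsk were chosen with values of these data known. The members and gene lists were chosen with earlier results of these data known. Scripts ran under Python 3.11.15 with scipy 1.17.1 for the intervals and scanpy 1.11.5 for Scrublet.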

Additional observations from a re-analysis of the deposited data

How the results depend on the processing

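The higher sum of the 9 proteases in leukocytes (log2 difference 1.62) kept its direction under 11 alternatives, as did the higher Ctsk in fibroblasts (4.44). The sum differed by 1.53 with a floor of 3000 UMIs, 1.69 with a floor of 10000, 1.60 with 1 more gate marker, 1.52 with barcodes of several gates kept, 1.54 as a mean over barcodes, 1.61 without mitochondrial and ribosomal protein genes, 1.74 with median-of-ratios size factors, 1.64 after removal of 1267 barcodes by Scrublet score, 1.68 after subtraction of RNA of the opposite class and 1.61 under 5% mitochondrial counts. For Ctsk these settings gave 4.20 and 4.28 for the floors, 4.16 with mixed barcodes, 4.61 as a mean over barcodes, 4.33 with size factors and 4.34 under 5% mitochondrial counts. The counts of 7 genes higher in leukocytes and 7 highest in the Gpnmb subset did not change under any of them. No share of all genes highest in the Gpnmb subset was counted to set beside the latter. Among single members, Ctsl passed 2-fold toward fibroblasts as a mean over barcodes (-1.03), Ctss ranged from 4.54 to 10.91, and Ctsc from 3.85 to 5.18. Between the Gpnmb and Lyve1 subsets Ctsz passed 2-fold in 4 of 12 settings, Ctsl in 2 and Ctsh changed sign in 3. Leaving out the 84 barcodes shared with the GFP- list, the comparison of the subsets under each setting and the counts over all genes were added after seeing the data. With 1 library there was no replicate to leave out. No paired analysis was possible because no replicate exists. Depth limits the values of the 40 endothelial, 48 smooth muscle and 70 Schwann barcodes, where Ctsk and Ctss rest on single digit or low UMI counts. RNA captured from lysed cells was not measured here.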
